A study of Ovis aries with 15 samples.

Results

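The genes described here are the receptors for oestrogen and progesterone, ESR1 and PGR, and 5 genes that act with them in the mammary gland: the ligands AREG, TNFSF11 and WNT4, the receptor TNFRSF11A and the oestrogen-responsive gene GREB1. The rule takes them by name and uses no measured value, although it was set with earlier results of these data known. All 7 are among the 24691 features of the deposited table. There 5 of them carry their own symbol, while PGR is listed as LOC443444 and TNFSF11 as LOC100037694. A RefSeq gene table (assembly ARS-UI_Ramb_v3.0) pairs these gene numbers with the symbols and places both genes on the same chromosomes as the deposited table does.

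Needle biopsies of mammary parenchyma were taken from primiparous Romney ewes in late pregnancy (day 135 ± 2.4 SD of gestation) and again in lactation (day 15 ± 1.27 SD post partum). RNA was pooled before sequencing, which gave 9 late pregnancy and 6 lactation libraries. The labels sort the pools by what the ewes' own dams grazed between days 21 and 50 of gestation. LM dams had a sub-maintenance allowance, MM dams a maintenance allowance and HM dams as much pasture as they would eat. All 3 kinds of dam then had a maintenance allowance up to day 140, and the ewes themselves were fed alike. Each dam group holds 3 late pregnancy and 2 lactation libraries. Pools of late pregnancy combined 3 ewes and those of lactation 2 by the series' design text, whereas the study's methods give 3 throughout. The same ewes were biopsied in both states, and the sources used here do not say which ewes entered which pool. A pool is an average over ewes, and a biopsy holds every cell type of the gland, so fewer cells of a type and less RNA per cell cannot be told apart.

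Oestrogen and progesterone act on the mammary epithelium largely through a subset of luminal cells that carry their receptors. These hormone-sensing cells pass the signal to their neighbours as secreted proteins. Amphiregulin (AREG) relays oestrogen through the EGF receptor during duct growth, and RANK ligand (TNFSF11) and WNT4 relay progesterone during the side branching and alveolar growth of pregnancy. Circulating progesterone falls around birth, and oestrogen and progesterone are the hormones of the growth phase of the gland, whereas prolactin is that of milk secretion.

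In the genome build of the deposited table, which the study's methods call version 3.2 and the labels Oar_v3.1, ESR1 spans chromosome 8 from 75455502 to 75705536 with 8 annotated exons. PGR lies on chromosome 15 from 7407295 to 7513730 with 9 exons, and AREG on chromosome 6 from 89051026 to 89063291 with 7. TNFSF11 lies on chromosome 10 from 13066978 to 13101480 with 4 exons, and its receptor TNFRSF11A on chromosome 23 from 60950899 to 61004938 with 13. WNT4 is given 14 exons on chromosome 2 from 243446643 to 243611833, and GREB1 32 exons on chromosome 3 from 20376633 to 20443648. The only other feature that overlaps any of these spans is LOC101103242 within that of ESR1, and it held 0 reads. Every exon read of the 7 genes was uniquely placed, since the counts of unique and of all exon reads gave the same numbers for each of them.

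Levels are given on either of 2 scales. RPKM, as deposited, is reads on exons per kilobase of annotated exon and per 1000000 reads on genes, and it allows genes to be compared with each other within a state. CPM is reads on exons per 1000000 of a library size scaled by the trimmed mean of M values (TMM), and it was used to compare 1 gene between the states. The choice matters here, because with library size alone, as in RPKM, the median log2 change of all features from late pregnancy to lactation was -1.94. A late pregnancy library held 7597938 to 19823166 reads on genes, and a lactation library 10352962 to 25679416.

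Per length of exon, the order of the 7 genes was PGR, ESR1, TNFRSF11A, TNFSF11, WNT4, GREB1, AREG in late pregnancy and ESR1, PGR, TNFRSF11A, AREG, WNT4, TNFSF11, GREB1 in lactation. In late pregnancy PGR had a mean of 8.62 ± 2.79 RPKM (SD, n = 9) and ESR1 3.94 ± 0.538. PGR stood above ESR1 in 9 of 9 late pregnancy libraries, although the ranges of the libraries overlapped. TNFRSF11A followed at 3.70 ± 0.601 RPKM, and it lay below ESR1 in only 6 of 9 libraries, so the order of this pair was not fixed. TNFSF11 had 1.17 ± 0.342 RPKM, WNT4 0.676 ± 0.172, GREB1 0.386 ± 0.0900 and AREG 0.0977 ± 0.0521. Among these 4 low genes, the libraries overlapped between neighbours except between GREB1 and AREG.

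In lactation the order began with ESR1 at 9.34 ± 0.669 RPKM (SD, n = 6), PGR at 2.73 ± 0.561 and TNFRSF11A at 0.968 ± 0.198. These 3 genes did not overlap with each other in any lactation library. Below them came AREG at 0.198 ± 0.0972 RPKM, WNT4 at 0.0568 ± 0.0495, TNFSF11 at 0.0386 ± 0.0355 and GREB1 at 0.0133 ± 0.0109. WNT4 lay above TNFSF11 in 3 of 6 libraries and TNFSF11 above GREB1 in 4 of 6, so the order of the last 3 is not resolved at this depth. By mean RPKM among all features, 8831 stood above ESR1 in late pregnancy and 2212 in lactation. For PGR these numbers were 6189 and 5972, and for TNFRSF11A 9038 and 9114.

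**Figure D1:**
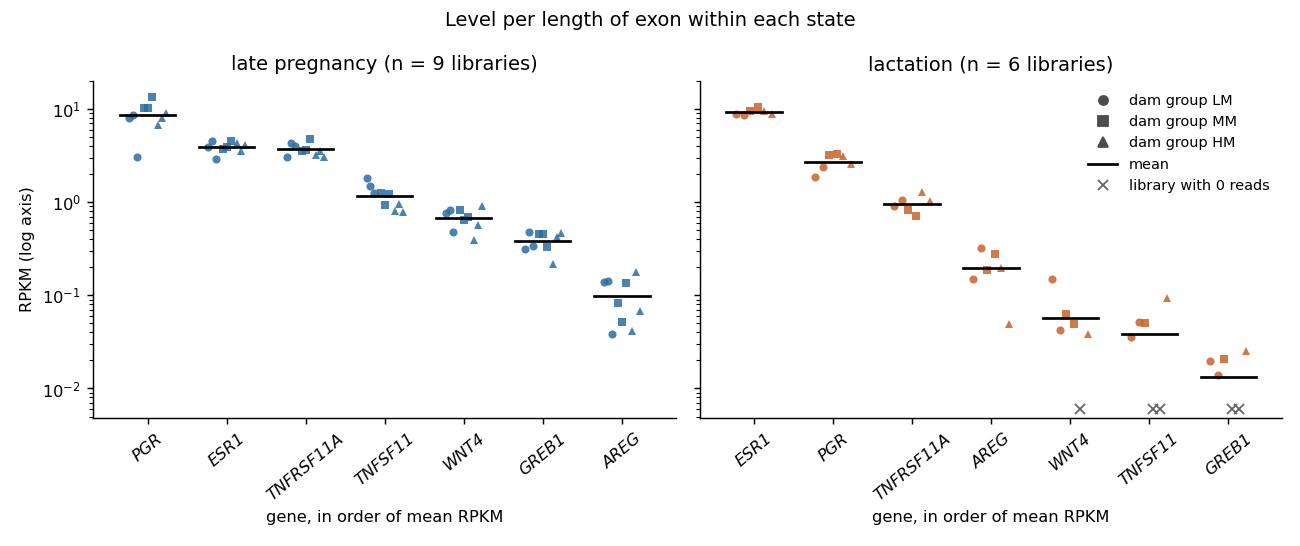
RPKM of the 7 genes on a log axis in the 9 late pregnancy libraries (left) and the 6 lactation libraries (right), genes in order of their mean (bars). PGR leads ESR1 in late pregnancy (8.62 against 3.94) and ESR1 leads PGR in lactation (9.34 against 2.73). Crosses mark the lactation libraries that held 0 reads of WNT4, TNFSF11 or GREB1.

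ESR1, the nuclear receptor through which oestrogen acts on hormone-sensing cells, had 11.3 to 19.1 CPM in late pregnancy (median 16.4, n = 9) and 121 to 150.2 CPM in lactation (median 126.0, n = 6). Every lactation library was above every late pregnancy library. The means were 15.8 ± 2.30 and 129 ± 10.8 CPM, a log2 change of 3.03 ± 0.09 (SE), which is 8.16-fold (edgeR quasi-likelihood test, adjusted p = 3.0e-16). Only 192 of the 13345 features tested had a larger log2 rise. On RPKM, which has no TMM scaling, the libraries of ESR1 did not overlap either, with 2.89 to 4.59 in late pregnancy and 8.65 to 10.5 in lactation.

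PGR, the progesterone receptor and a classical target of ESR1, was not called. Its libraries had 3.27 to 13.7 CPM in late pregnancy (median 8.97, n = 9) and 7.05 to 12.6 CPM in lactation (median 10.4, n = 6). The lactation libraries lay within the range of the late pregnancy libraries. The log2 change was 0.15 ± 0.22 (SE) with an adjusted p of 0.556 (edgeR), and an interval of 2 standard errors runs from -0.28 to 0.58. On RPKM the means were 8.62 ± 2.79 and 2.73 ± 0.561. The overlap between the states came from a single late pregnancy library, LM pool 3, at 3.09 RPKM against a lactation maximum of 3.28. The study's supplement lists this gene, under its gene number, among those it measured by quantitative PCR. It describes that subset as differentially expressed in its own RNA-seq test. Those measurements were not compared with the values here.

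The ratio of PGR to ESR1 within a library does not depend on how libraries are scaled against each other. In RPKM it was 1.07 to 2.92 in the 9 late pregnancy libraries and 0.206 to 0.335 in the 6 lactation libraries. PGR was the higher of the pair in every late pregnancy library and in no lactation library. The mean log2 ratio of reads fell by 2.84, from -0.84 ± 0.45 to -3.68 ± 0.26 (SD), which is 7.18-fold. An exact two-sided permutation test over the 15 libraries gave p = 0.0004, the smallest value it can give (0.0006 adjusted over the 6 ratios computed). By reads, without regard to length, ESR1 exceeded PGR in all 15 libraries, so the order of the pair in late pregnancy holds only per annotated length. The RPKM ratio rests on the annotated exons, which total 1556 bases for PGR and 5779 for ESR1. Reads across exon junctions were 70.0% of the exon reads of PGR and 7.03% of those of ESR1 in late pregnancy, and how far the annotation covers either transcript was not tested. The change of the ratio between states is free of the exon lengths.

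**Figure D2:**
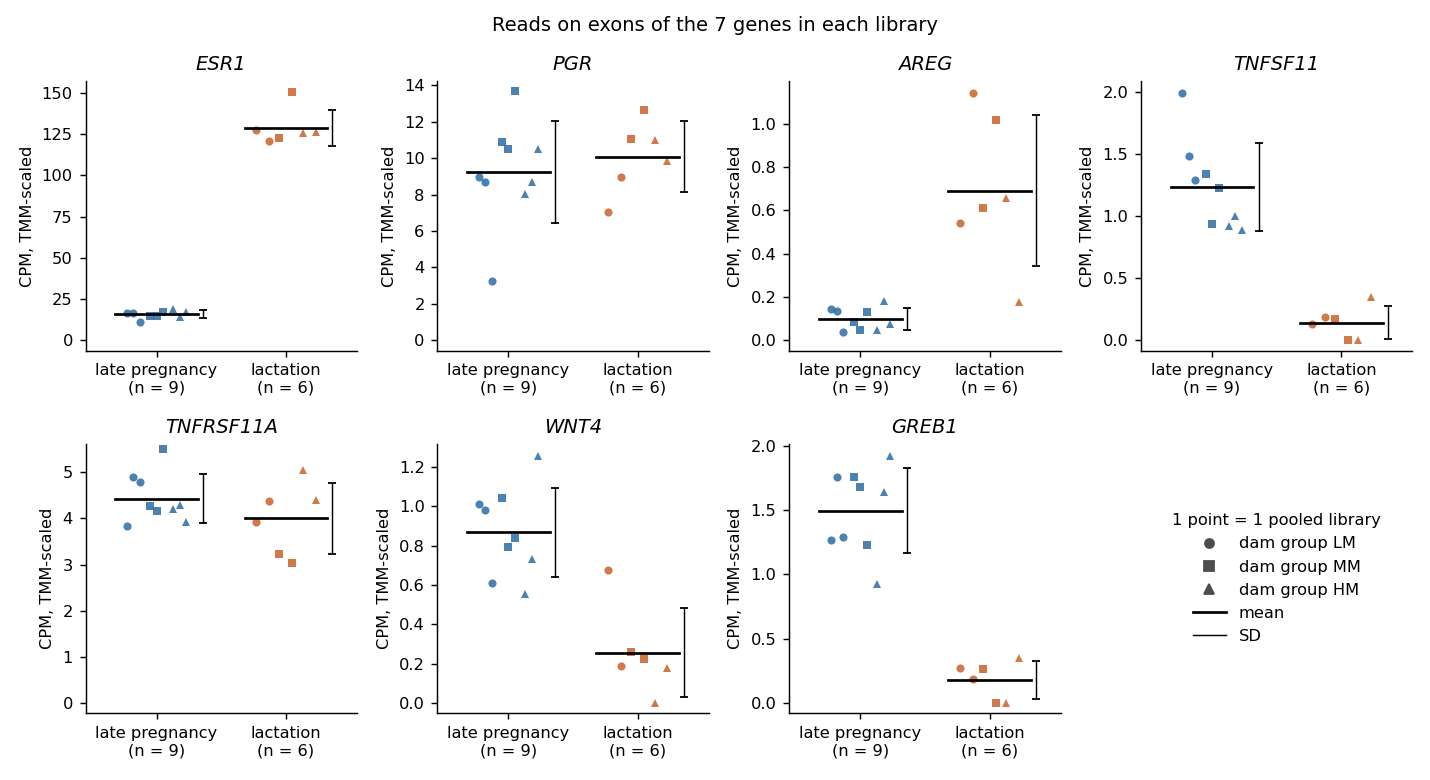
CPM of the 7 genes in each library (points, shaped by dam group), with the mean (bar) and SD of the 9 late pregnancy and 6 lactation libraries. ESR1 is higher in every lactation library, PGR and TNFRSF11A overlap between the states, and TNFSF11 and GREB1 are lower in every lactation library.

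GREB1, a co-factor of ESR1 whose gene is itself a direct ESR1 target, moved against ESR1. It held 18 to 52 exon reads in the late pregnancy libraries and 0 to 3 in the lactation libraries, 280 reads against 8 in all. In CPM this was 0.922 to 1.92 (median 1.65, n = 9) and 0 to 0.352 (median 0.226, n = 6). No lactation library reached the lowest late pregnancy library, and 2 of them had no read. The log2 change was -2.95 ± 0.38 (SE, edgeR, adjusted p = 1.1e-06). Pooled over the libraries, late pregnancy exceeded lactation 7.99-fold, with a 95% interval of 4.0 to 18.7 that covers counting error alone. All 8 lactation reads crossed exon junctions, as did 72.1% of the late pregnancy exon reads.

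Relative to ESR1 in the same library, the log2 ratio of GREB1 ran from -4.34 to -3.04 over the pregnancy pools and from -11.38 to -8.17 over the lactation pools. The groups did not overlap, and the mean ratio fell by 5.88 (exact permutation test, p = 0.0004, adjusted 0.0006). The lactation values rest on 0 to 3 reads plus the 0.5 that was added to every count.

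Among the ligands, AREG was barely detected. It held 1 to 4 exon reads per late pregnancy library and 1 to 9 per lactation library, 18 and 30 in all. It did not pass the filter on low counts, so it has no value in the test across features. Its CPM was 0.0380 to 0.183 in late pregnancy (median 0.0836, n = 9) and 0.176 to 1.14 in lactation (median 0.634, n = 6). The libraries overlapped through HM pool 2 of lactation, and the other 5 lactation libraries were above all 9 late pregnancy libraries. The ratio of the pooled reads, lactation over late pregnancy, was 7.30 with a 95% counting interval of 3.94 to 13.9. Without the filter, edgeR gave a log2 change of 2.71 (adjusted p = 5.2e-06). Relative to ESR1, AREG had a mean log2 ratio of -7.11 ± 0.65 (SD) in the pregnancy pools and -7.54 ± 0.77 in the lactation pools, and the means differed by -0.43 (exact permutation test, p = 0.272, adjusted 0.272).

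TNFSF11, which encodes RANK ligand, was among the genes that fell. It held 11 to 55 exon reads per late pregnancy library and 0 to 2 per lactation library, 246 against 6 in all. Its CPM was 0.887 to 1.99 in late pregnancy (median 1.23, n = 9) and 0 to 0.352 in lactation (median 0.155, n = 6). The groups did not overlap, and 2 lactation libraries had no read. The log2 change was -3.11 ± 0.43 (SE, edgeR, adjusted p = 2.5e-06), and the pooled reads gave late pregnancy 9.36-fold above lactation with a counting interval of 4.24 to 25.8.

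WNT4, the other progesterone-induced ligand, was also lower in lactation. It held 8 to 29 exon reads per late pregnancy library and 0 to 5 per lactation library, 164 and 12 in all. Its CPM was 0.553 to 1.26 in late pregnancy (median 0.841, n = 9) and 0 to 0.678 in lactation (median 0.208, n = 6). The groups overlapped through LM pool 1 of lactation, which held 5 of the 12 reads. The log2 change was -1.62 ± 0.37 (SE, edgeR, adjusted p = 7.3e-04), and without LM pool 1 of lactation it was -2.12 (adjusted p = 1.3e-04). The pooled reads gave late pregnancy 3.12-fold above lactation, with a counting interval of 1.74 to 6.16.

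Both ligands fell against PGR within the library. The log2 ratio of TNFSF11 to PGR was -3.51 to -1.33 in late pregnancy and -7.81 to -4.50 in lactation, with no overlap and a mean difference of -2.95 (exact permutation test, p = 0.0004, adjusted 0.0006). That of WNT4 to PGR overlapped between the states, through LM pool 1 of lactation, and differed by -1.80 (p = 0.0024 by the same exact test, adjusted 0.0029). The highest late pregnancy value of either ratio belonged to LM pool 3, the library with the lowest PGR.

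TNFRSF11A encodes RANK, the receptor that receives TNFSF11 on neighbouring epithelial cells. It held 3.83 to 5.50 CPM in late pregnancy (median 4.26, n = 9) and 3.04 to 5.06 CPM in lactation (median 4.16, n = 6). Its libraries overlapped, and the log2 change was -0.19 ± 0.13 (SE, edgeR, adjusted p = 0.204), with an interval of 2 standard errors from -0.45 to 0.07. On RPKM the libraries did not overlap, at 3.06 to 4.81 in late pregnancy and 0.708 to 1.28 in lactation.

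TNFRSF11B, the soluble decoy receptor osteoprotegerin that binds TNFSF11, rose by 3.02 on the log2 scale (edgeR, adjusted p = 1.5e-04). Late pregnancy libraries had 0.0338 to 0.970 CPM and lactation libraries 0.407 to 7.83, and a single library, MM pool 1 of lactation, held 90 of the 134 lactation reads. Without it the lactation mean was 1.28 in place of 2.37 CPM and the log2 change 2.02 (adjusted p = 0.0057). TNFRSF11B did not pass the filter and was not tested when HM pool 3, MM pool 2 or MM pool 3 of late pregnancy was left out. The log2 ratio of TNFSF11 to TNFRSF11B was above 0 in 9 of 9 late pregnancy libraries (0.33 to 4.89) and below 0 in 6 of 6 lactation libraries (-5.73 to -0.49). Its mean fell by 5.17 (exact permutation test, p = 0.0004, adjusted 0.0006). Both genes of this ratio are low, with 1 to 15 reads of TNFRSF11B per late pregnancy library and 0 to 2 of TNFSF11 per lactation library.

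**Figure D3:**
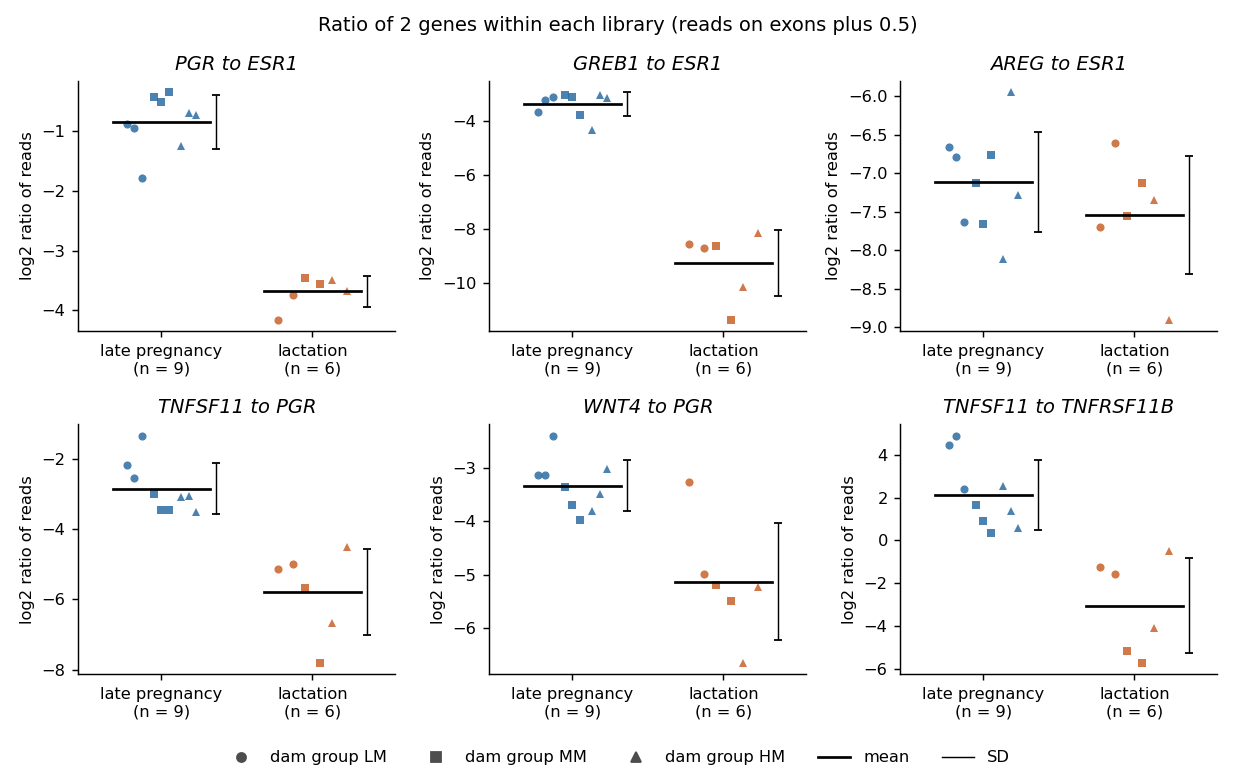
Log2 ratio of the reads of 2 genes in the same library, with 0.5 added to each count, for 9 late pregnancy and 6 lactation libraries (points), with mean (bar) and SD. The ratios of PGR to ESR1, GREB1 to ESR1, TNFSF11 to PGR and TNFSF11 to TNFRSF11B do not overlap between the states, whereas those of AREG to ESR1 and WNT4 to PGR do.

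In all, 6 of the 7 genes passed the filter and 4 were called: ESR1 higher and TNFSF11, WNT4 and GREB1 lower in lactation. Calls were common in this comparison, with 68.4% of the 13345 features called, 33.1% higher and 35.2% lower in lactation, so 4 of 6 is close to the background. For 3 of the 6 (ESR1, TNFSF11 and GREB1) late pregnancy and lactation had no CPM range in common, which held for 40.2% of features. TNFSF11, WNT4 and GREB1 passed the filter through their late pregnancy reads alone, so they had to differ in that direction, and their number is no support.

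The direction of PGR and the call of TNFRSF11A depended on the scaling. Scaling by library size alone moved the median log2 change of all features to -1.94, from -0.03 under TMM. PGR then read -1.76 and TNFRSF11A -2.09, both called (adjusted p = 1.1e-07 and 1.1e-11), while relative to the median of all features they stood at 0.17 and -0.16, against 0.18 and -0.16 under TMM. Under upper quartile scaling (median -0.18) PGR read -0.0031 (adjusted p = 0.991) and TNFRSF11A -0.34 (adjusted p = 0.029). Of the features called, 48.4% were higher in lactation under TMM, 36.3% under upper quartile scaling and 2.7% with library size alone. ESR1 kept its rise and TNFSF11, WNT4 and GREB1 their fall under each scaling tried, and relative to the median of all features ESR1 stood at 3.06 with either TMM or library size alone. The authors' quantile-normalized RPKM, which gives every library the same distribution, put ESR1 at 2.81 ± 0.435 in late pregnancy and 20.7 ± 1.61 in lactation. PGR had 6.19 ± 1.93 and 6.55 ± 1.15 and TNFRSF11A 2.61 ± 0.254 and 2.54 ± 0.443 on this scale, with overlap for both.

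**Figure D4:**
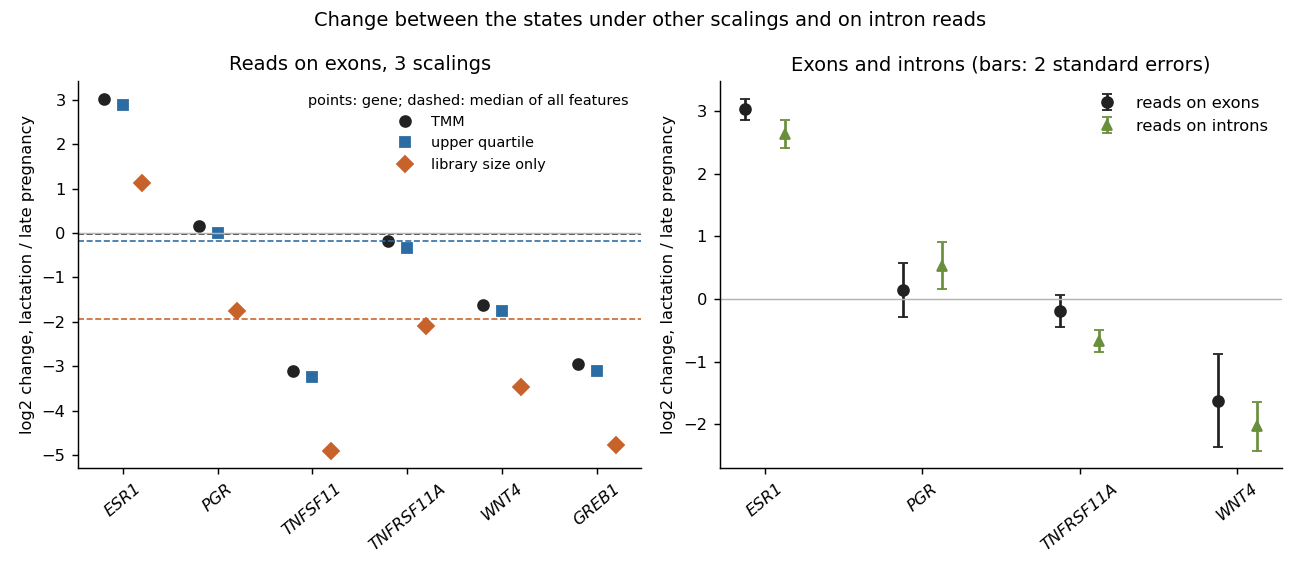
Left, log2 change between the states (lactation over late pregnancy) of the 6 tested genes under TMM, upper quartile and library size scaling, with the median of all features under each as a dashed line. Right, the change on exon and on intron reads with bars of 2 standard errors, where PGR reads 0.15 on exons and 0.54 on introns.

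The levels were also set against luminal keratins of the same library, as the geometric mean of KRT8, KRT18 and KRT19, since the 7 genes are known mostly from the epithelium. ESR1 was higher in lactation by 2.62 on the log2 scale and without overlap (exact permutation test, p = 0.0004). TNFSF11 differed by -3.17 and GREB1 by -3.26, also without overlap (p = 0.0004 for both, exact test), and WNT4 by -2.03 with overlap (exact p = 8.0e-04). AREG differed by 2.19 (exact p = 8.0e-04), and TNFRSF11A by -0.56 (exact p = 0.0016), both with overlap. PGR differed by -0.22 (exact p = 0.432). These p are not adjusted over the 7 genes. These keratins were not level under TMM. KRT19 rose by 0.61 and KRT18 by 0.43 (edgeR, adjusted p = 5.6e-05 and 0.046). KRT8 was not called (0.13, adjusted p = 0.392). KRT7, a luminal keratin left out of the reference, had a log2 change of -1.12 (edgeR, adjusted p = 5.5e-10). A reference that includes KRT7 was not tested. The size for TNFRSF11A depended on the reference: with EPCAM and CDH1 in place of the keratins it differed by -0.23 (exact p = 0.042).

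Reads that fall in the introns of a gene come from other reads of the same libraries. They were counted for genes with an annotated transcript as reads on the whole gene less reads on exons, and 10344 features passed the filter, of which 58.0% were called. On introns 4 of the 7 genes could be tested and all 4 were called. ESR1 had 18.6 to 35.9 intron CPM in late pregnancy and 145.6 to 205 in lactation, without overlap, and a log2 change of 2.63 ± 0.11 (SE, edgeR, adjusted p = 9.9e-16). WNT4 had 48.8 to 96.1 intron CPM in late pregnancy and 11.6 to 20.1 in lactation, again without overlap, and a log2 change of -2.03 ± 0.19 (adjusted p = 3.1e-09).

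The other two genes were called on introns and not on exons. TNFRSF11A, which was not called on exons, had 350.2 to 443 intron CPM in late pregnancy and 203 to 295 in lactation, without overlap, and a log2 change of -0.66 ± 0.09 (SE, edgeR, adjusted p = 6.7e-07). PGR had 37.5 to 132 intron CPM in late pregnancy and 88.4 to 190.4 in lactation. These overlapped, and the log2 change was 0.54 ± 0.19 with an adjusted p of 0.019. That call was lost without HM pool 1 of lactation (0.39, adjusted p = 0.075), and with library size scaling the value was -0.13 (adjusted p = 0.490). The difference between the exon and the intron change was not tested for any gene. Introns held 91.5% of the late pregnancy gene reads of TNFRSF11A, 89.8% of those of WNT4, 52.5% of those of PGR and 17.9% of those of ESR1, so for TNFRSF11A, WNT4 and PGR the introns held more reads than the exons. Here introns are all of the annotated span outside annotated exons, and whether such reads come from transcripts missing from the annotation was not tested.

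The other genes of the pathway were counted by list under TMM, and their directions carry the same dependence on scaling. Beside the count of each list stand the shares of all features, 33.1% called higher and 35.2% called lower in lactation. Around the receptors, 10 of 16 tested partners rose and 2 fell (median log2 change 0.25, against -0.03 for all features). The coactivators NCOA2 and NCOA3, which bind steroid receptors, rose from 18.8 ± 3.01 to 50.8 ± 3.04 CPM and from 26.4 ± 3.54 to 65.6 ± 5.46 CPM, by 1.43 and 1.31 on the log2 scale (edgeR, adjusted p = 2.7e-11 and 2.6e-11). NRIP1, a corepressor that oestrogen receptor recruits, rose by 0.91 (adjusted p = 1.6e-06). The partners that fell were CITED1, a co-factor of the oestrogen receptor, and GATA3, a transcription factor of luminal cells. CITED1 went from 4.14 ± 0.693 to 0.347 ± 0.342 CPM with no overlap (log2 change -3.55, adjusted p = 7.4e-09), and GATA3 from 111 ± 26.0 to 73.1 ± 13.8 CPM with overlap (-0.59, adjusted p = 0.0013). With so few lactation reads, CITED1 owed its place in the test to its late pregnancy reads. ESR2, the second oestrogen receptor, held 1 to 7 reads per late pregnancy library and 3 to 14 per lactation library. In CPM it was higher in lactation, at 0.0739 to 0.457 in late pregnancy and 0.522 to 2.29 in lactation. It did not pass the filter, so this difference was not tested.

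Known oestrogen targets other than PGR, GREB1 and AREG went both ways. Of 13 tested, 5 rose and 5 fell (median log2 change 0.12). This is close to the 33.1% higher and 35.2% lower of all features, so the counts show nothing particular to these targets. MYB, among the fallers, had a mean of 0.536 CPM in lactation and owed its place in the test to its late pregnancy reads. RET, a receptor tyrosine kinase, rose from 2.65 ± 0.540 to 51.8 ± 8.89 CPM (log2 change 4.30, adjusted p = 2.5e-16), the trefoil peptide TFF3 from 36.3 ± 11.6 to 311 ± 83.6 CPM (3.105, adjusted p = 4.1e-11), and XBP1, a factor of the secretory pathway, by 1.49 (adjusted p = 7.4e-14), all by edgeR. MYC fell from 52.5 ± 3.50 to 14.9 ± 2.36 CPM (-1.80, adjusted p = 2.2e-13), CCND1, which encodes cyclin D1, by 0.96 on the log2 scale (adjusted p = 2.8e-05) and CA12 by 0.84 (adjusted p = 0.0034). TFF1 was at 0 in all 15 libraries.

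Of 5 tested progesterone targets 3 rose and 1 fell (median 0.70). The risers were ELF5, a driver of alveolar differentiation (629 ± 31.7 to 1100.0 ± 54.7 CPM, log2 change 0.81), FKBP5 (0.70) and ZBTB16 (1.52), with adjusted p of 2.4e-11, 2.1e-04 and 4.9e-08 by edgeR. FKBP5 and ZBTB16 also respond to glucocorticoids. The 1 that fell was CCND1, which is shared with the oestrogen targets, and ID4 was not called (-0.19, adjusted p = 0.062).

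In the arm of amphiregulin, all 7 tested genes were called, 5 higher and 2 lower (median log2 change 0.36). ADAM17, the protease that releases AREG from the cell surface, rose by 0.21 and EGFR, the receptor that binds it, by 0.36 (edgeR, adjusted p = 0.0031 and 0.012). BTC and HBEGF, which are also ligands of the EGF family, rose from 3.05 ± 0.526 to 9.43 ± 0.895 CPM (log2 change 1.62, adjusted p = 3.4e-10) and from 0.557 ± 0.214 to 1.30 ± 0.410 CPM (1.23, adjusted p = 6.7e-04). ERBB2, which pairs with EGFR, fell by 0.66 on the log2 scale and RHBDF1, which carries ADAM17 to the surface, by 0.32 (adjusted p = 2.4e-07 and 0.024). EREG was at 0 in all libraries.

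In the arm of RANK, 7 of 12 tested genes rose and 3 fell (median 0.31). RELA, a subunit of NF-kB, rose from 39.7 ± 2.70 to 73.4 ± 4.64 CPM (log2 change 0.89, adjusted p = 1.9e-11, edgeR). ID2, which acts below RANK in the mammary epithelium, fell from 26.4 ± 5.03 to 12.3 ± 2.16 CPM (-1.08, adjusted p = 8.2e-07). The adaptor TRAF2 fell by 0.43 on the log2 scale and the kinase MAP3K14 by 0.32 (adjusted p = 1.0e-04 and 0.047).

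In the arm of WNT4, 5 of 16 tested genes rose and 8 fell (median log2 change -0.43), where 33.1% and 35.2% of all features did. Of the 8 fallers, 5 had a mean under 1 CPM in lactation (RSPO1, AXIN2, TCF7, FZD1 and FZD2) and so owed their place in the test to their late pregnancy reads, and the count is a description only. RSPO1, a secreted protein that strengthens Wnt signals, had 5.39 to 8.42 CPM in late pregnancy and no read in any of the 6 lactation libraries. Set against 3 reads in the smallest of these libraries it was at least 11.1-fold lower, and the median of the list was the same with RSPO1 at that bound. AXIN2 and TCF7, which respond to or carry out canonical Wnt signalling, fell from 2.36 ± 0.490 to 0.442 ± 0.343 CPM and from 3.06 ± 0.613 to 0.815 ± 0.371 CPM (log2 changes -2.40 and -1.84, both adjusted p = 1.1e-06, edgeR). The frizzled receptors, which bind Wnt proteins, went both ways. FZD5 and FZD4 rose by 3.15 and 1.18 (adjusted p = 1.4e-12 and 1.0e-08), FZD1, FZD2, FZD6 and FZD7 had log2 changes of -1.25, -1.33, -0.55 and -1.27 and were called lower, and FZD3 was not called (-0.12, adjusted p = 0.339). LGR4, which binds R-spondins, rose by 0.19 and the co-receptor LRP6 by 0.31 (adjusted p = 0.031 and 0.025).

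Of 7 tested genes of local steroid supply, 2 rose and 4 fell (median -0.77). HSD17B12 and HSD17B7, enzymes with roles in fatty acid elongation and cholesterol synthesis as well as in oestradiol formation, rose by 2.05 and 1.10 on the log2 scale (edgeR, adjusted p = 4.4e-14 and 6.0e-08). HSD17B1, which makes oestradiol, fell from 1.87 ± 0.453 to 0.307 ± 0.243 CPM (-2.34, adjusted p = 4.6e-06), and SRD5A1 and HSD17B11 fell by 1.12 and 0.84 on the log2 scale (adjusted p = 5.3e-08 and 1.4e-05). HSD17B1 owed its place in the test to its late pregnancy reads. Over these 7 lists, 59 of the 73 tested genes were called, beside the 68.4% of all features given above.

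Markers of other cell types moved with the states, and their counts stand beside the 33.1% of all features called higher and 35.2% called lower. Of the hormone-sensing luminal markers, 2 of 3 tested were lower in lactation and none higher, and the summed CPM of 4 of them ran from 76.4 to 159 in late pregnancy and from 55.4 to 96.6 in lactation. CITED1 of this list and CD8A of the T cell list had a mean under 1 CPM in lactation. They owed their place in the test to their late pregnancy reads, so they had to differ in that direction. GATA3 made up 91.2 to 97.6% of that sum in every library, and without it the others summed to 4.93 to 7.88 CPM per late pregnancy library and 1.33 to 3.52 per lactation library. FOXA1 of this list, a factor that opens chromatin for ESR1, was near the detection limit and was not tested. It held 2 to 12 reads per late pregnancy library and 1 to 6 per lactation library. Its CPM overlapped between the states, with a higher mean in lactation (0.535 ± 0.254) than in late pregnancy (0.367 ± 0.128). PRLR was not analysed here. Luminal markers summed to 974 to 1425 and 1326 to 1573 CPM (3 of 6 higher, 1 lower), and markers of secretory alveolar cells to 38940 to 76990 and 715800 to 883200 (5 of 5 higher). Fibroblast markers were lower (6 of 7, 1371 to 2168 against 663 to 1057 CPM), as were those of endothelium (4 of 5, 189 to 258 against 134 to 189) and T cells (5 of 5, 36.6 to 59.5 against 12.1 to 18.9). Of the macrophage markers 3 of 5 were lower and 1 higher (104 to 136 against 62.2 to 92.1 CPM), of the myoepithelial markers 3 of 7 were higher and 2 lower (708 to 791 against 655 to 955), and of the adipocyte markers none of 4 was called (223 to 428 against 303 to 394). No marker in the table was at 0 in all libraries. Their part in the changes of the 7 genes was not tested.

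Between libraries of the same state, ESR1 and TNFRSF11A varied least. The coefficient of variation of CPM over the 9 late pregnancy libraries was 14.6% for ESR1, 12.1% for TNFRSF11A, 22.0% for GREB1, 26.0% for WNT4, 28.8% for TNFSF11 and 30.5% for PGR. Counting error alone, at the mean number of reads, would give 5.50, 10.4, 17.9, 23.4, 19.1 and 7.31% in the same order. The spread of ESR1 and PGR was well above this, that of TNFRSF11A, GREB1 and WNT4 was near it, and TNFSF11 lay between. In PGR the LM pool 3 library, at 3.27 CPM, was well below the next lowest library, HM pool 1 at 8.02. The same library had the lowest ESR1 of late pregnancy, 11.3 CPM, and the lowest FOXA1, 0.0760 CPM. Its luminal markers, at 1170 CPM in sum, lay inside the range of the others. Without it the log2 change of PGR between states was 0.03 (adjusted p = 0.871).

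The design of the series also asks whether the feeding of the dams left a trace in the gland of their daughters. In late pregnancy edgeR called 0 of 13747 features across the LM, MM and HM groups (0.0%), with 571 at an unadjusted p under 0.05, which is 4.15% of them. DESeq2 called 20, with 483 at that unadjusted p, and none of the 7 genes was called by either tool. The smallest unadjusted p among the genes were 0.041 for TNFSF11 and 0.068 for PGR, and the adjusted p was 0.9997 for both. TNFSF11 had 1.29 to 1.99 CPM in the LM pools, 0.941 to 1.34 in the MM pools and 0.887 to 1.01 in the HM pools. PGR had 3.27 to 8.97, 10.5 to 13.7 and 8.02 to 10.49 CPM in these groups. In lactation the PGR pools were at 7.05 and 8.95 CPM in LM, 11.1 and 12.6 in MM and 9.85 and 10.99 in HM, the same order of group means as in late pregnancy, which was not tested. By the lane in their names, all LM libraries share a lane, and every HM library but pool 3 of late pregnancy carries the other. Per the labels, however, each library ran on both lanes. Lane was not a covariate in the tests of dam feeding, and its part in these group differences was not tested.

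Whether the change between the states differed with dam feeding was tested over all 15 libraries. For this interaction edgeR called 0 of 14073 features (0.0%), with 913 at an unadjusted p under 0.05 (6.49%), and DESeq2 called 14, with 725 at that unadjusted p. None of the 7 genes was among the called, and the smallest unadjusted p was 0.076, for TNFRSF11A (adjusted 0.786). ESR1 in lactation was at 121 and 127 CPM in LM, 123 and 150.2 in MM and 126.4 and 125.5 in HM.

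**Figure D5:**
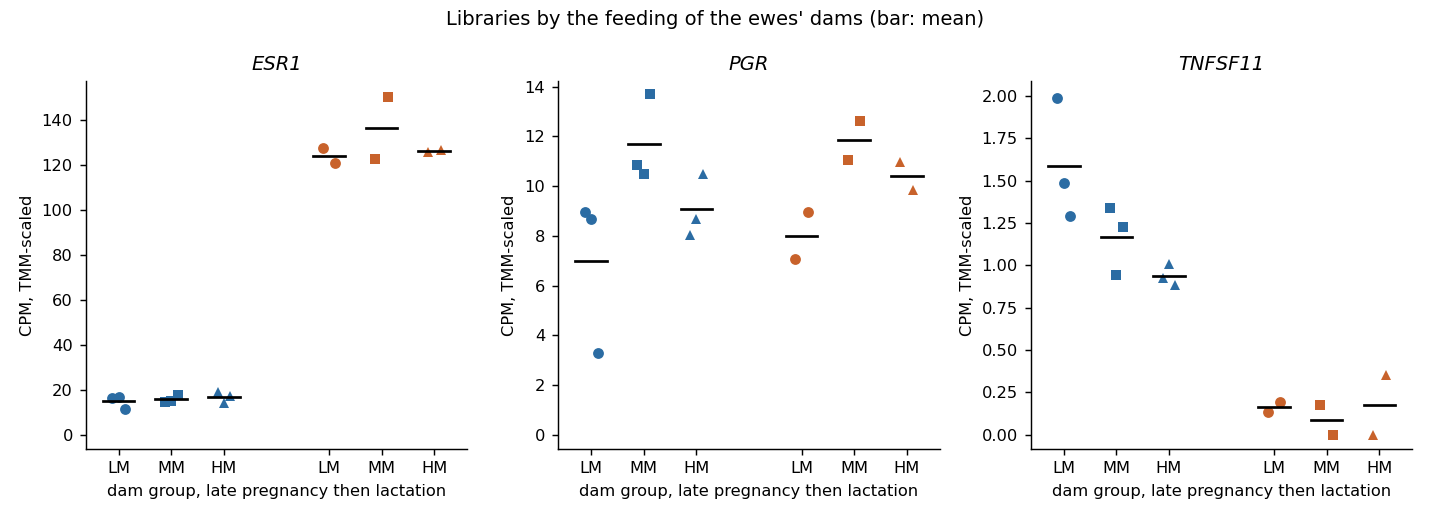
CPM of ESR1, PGR and TNFSF11 by the feeding of the ewes' dams, with 3 late pregnancy libraries (blue) and 2 lactation libraries (orange) per group and the group mean as a bar. In late pregnancy TNFSF11 is at 1.29 to 1.99 CPM in LM, 0.941 to 1.34 in MM and 0.887 to 1.01 in HM. No gene shown passed the test across features.

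The genes most alike in their pattern over the 15 libraries, after the mean of each state was taken off, were read as a description, since the points share their libraries and their depth. For ESR1 these were ZFP57 (Pearson r = 0.80), BAG4 (0.80) and TRPM8 (0.76), and for PGR EFHB (0.78), LOC101122545 (0.76) and CDK5RAP3 (0.71). TNFSF11 was nearest to NPEPPS (0.79), FAM149A (0.77) and LOC101122728 (0.75), and TNFRSF11A to NHLRC3 (0.91), ARHGAP28 (0.89) and SHROOM3 (0.87). WNT4 was nearest to PDLIM2 (0.94), HPCAL1 (0.90) and TROAP (0.82), and GREB1 to POP1 (0.86), TMX3 (0.83) and EIF4A1 (0.76). None of the 7 genes was on the list of another. Among themselves ESR1 and PGR correlated at 0.69 over the 9 late pregnancy libraries and 0.50 over the 6 lactation libraries. WNT4 and GREB1 correlated at 0.69 and TNFSF11 and PGR at -0.11 over the late pregnancy libraries.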

How the data were processed

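The authors mapped paired Illumina reads to the sheep genome (version 3.2 in the methods, Oar_v3.1 in the labels) in CLC Genomics Workbench. The counts deposited by the authors are reads on exons, on exon junctions and on whole genes, without normalization. The deposited RPKM values were recomputed from these counts to within 3.5e-07 of their size, and the authors' normalized RPKM are quantile-normalized. The authors' fold changes, weighted differences and p-values from their own test of proportions were not used.

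The 7 genes and all lists were chosen with earlier results of these data known. Exon reads (whole gene reads for the 5583 features without a transcript) were tested with edgeR 4.0.16 in R 4.3.3: filterByExpr by state, TMM, quasi-likelihood F-test without covariates over 15 libraries, p adjusted by Benjamini-Hochberg over all tested features and called under 0.05. On simulated data with 200 changed genes among 13179 this recovered 91.8% of changes of log2 size 1 and 100% of size 2. Intron reads, dam feeding and the interaction were tested alike. DESeq2 1.42.0 and limma 3.58.1 served as alternatives. Ratios within a library used an exact two-sided permutation test (scipy 1.17.1). Intervals of pooled counts are exact and conditional, and cover counting error only, not the spread between pools. Reads had no molecular identifiers, so copies of a molecule were counted as separate reads. P-values measure the spread between pools.

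Named were the 7 genes, their direct partners TNFRSF11B, ADAM17, EGFR, LGR4 and ELF5, and up to 3 risers and 3 fallers of each list with a mean of at least 1 CPM in either state. The 3 genes of highest within-state correlation to each tested gene were also named. ESR2, TFF1, EREG, FOXA1, ID4, FZD1, FZD2, FZD3, FZD6, FZD7, MYB, CD8A and the keratins were named after their values were seen. Libraries carry a lane in their name, but per the labels each ran on both lanes, so lane entered only as an alternative covariate of the comparison between states.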

Additional observations from a re-analysis of the deposited data

Results flagged for a closer look

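In lactation, the ESR1 level of MM pool 2 stood apart from the other 5 libraries. It had 150.2 CPM, whereas the others lay between 121 and 127 CPM, and its gap to the nearest library exceeded Dixon's critical value for 6 samples. In all, 26 groups of values were examined in this way (7 genes and 6 ratios in both states), and chance flags about 5% of groups. Without this library the states still did not overlap. The same library had the highest PGR of lactation, 12.6 CPM, and no read of TNFSF11 or GREB1.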

How the results depend on the processing

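Depth limits AREG, TNFSF11, WNT4 and GREB1, which held 6 to 30 reads in all 6 lactation libraries together. With at least 10 reads demanded in every library, 1 gene was called between the states in place of 4, since the low genes were no longer tested. PGR reversed with library size alone (-1.76 on exons, -0.13 on introns), with upper quartile scaling (-0.0031) and with EPCAM and CDH1 in place of keratins (0.10). TNFRSF11A passed the threshold with library size alone (-2.09) and upper quartile scaling (-0.34). Of the single values under other settings, 109 kept their direction and their side of the threshold. Sizes moved more: with limma on log2 of quantile-normalized RPKM plus 1, TNFSF11 read -0.70, WNT4 -0.32 and GREB1 -0.27, and with 0.1 in place of 1 -2.23, -1.12 and -1.32. With library size alone they read -4.91, -3.47 and -4.78, and ESR1 1.12. Leaving out each library in turn gave 4 to 4 genes called on exons, 3 to 4 on introns (PGR 0.39 without HM pool 1 of lactation), 53 to 59 genes of the pathway lists, 0 to 0 by dam feeding, 5 to 5 of the ratios and 6 to 6 of the genes per keratin. Libraries of the same dam group and pool number did not deviate together (r from -0.02 to 0.07 over 6 pairs). This cannot tell whether they share ewes, since the ewes of each pool are not given. With dam group and pool number as a replicate block, 4 of the 7 genes and 55 genes of the pathway lists were called. Over all features 8464 were called with this block. Within the late pregnancy libraries 0 of the 7 genes were called by dam feeding with the block.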
